A study of Mus musculus with 8 samples.

Results

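The cytosolic ribosomal protein genes encode the proteins of the small and large subunits of the ribosomes that work in the cytoplasm. They were taken by symbol from the deposited table: every protein-coding row named Rpsa, or Rps or Rpl (with the stalk genes Rplp0, Rplp1 and Rplp2) followed by a number and at most a short suffix, leaving out the kinase genes named Rps6k. The rule found 83 of the 23131 genes in the table, 32 of the small subunit and 51 of the large subunit. They lie on 19 chromosomes, 14 of them on chromosome 7 and 4 on chromosome X. The rule uses no measured value, but the set was chosen with earlier results of these data known. Genes such as Fau, Rack1, Rpl36al and Rps27rt belong to or resemble ribosomal proteins but fall outside the rule and were kept as a separate list.

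The cells are granulocyte-macrophage progenitors (GMP), bone marrow precursors of neutrophils and monocytes, sorted from C57BL/6 mice. The RH2hKO group is 4 mice with floxed Rnaseh2b (Rnaseh2b fl/fl) and Vav-Cre, replicates 5 to 8, and the RH2hWT group is 4 littermates without Cre that carry the same alleles, replicates 1 to 4. Vav-Cre acts across blood-forming cells, so the deletion is not limited to GMP and precedes them, and both groups carry the floxed alleles. RNase H2, of which Rnaseh2b is a subunit gene, cuts misplaced ribonucleotides out of DNA, and the labels give neither the age nor the sex of the mice. The comparison asks which transcripts differ in GMP without Rnaseh2b.

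Most ribosomal proteins are needed in equal numbers, and ribosomal protein mRNAs are among the most abundant in dividing cells. Most of these mRNAs begin with a C followed by a run of pyrimidines, the 5′ terminal oligopyrimidine (TOP) motif, through which mTORC1 and the RNA-binding protein Larp1 adjust their translation. In blood, ribosomal proteins are known from Diamond-Blackfan anaemia, in which loss of a single copy of such a gene impairs red cell production, and from the complex of Rpl5, Rpl11 and 5S rRNA, which binds Mdm2 and stabilises p53 when ribosome assembly is disturbed.

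Libraries held 34976865 to 38917550 reads in RH2hKO and 28352720 to 45655518 in RH2hWT. Values below are normalised counts, gene counts divided by 1 factor per library by the authors. Rnaseh2b had 118, 128, 75.9 and 95.3 normalised counts in RH2hKO libraries 5 to 8, against 2288, 2470.0, 1249 and 1207 in RH2hWT libraries 1 to 4. The groups did not overlap (log2 fold change -4.05, SE 0.24, adjusted p = 3.8e-07, limma). All 10 GMP marker genes were detected, led by the granule protein genes Mpo and Elane, with a summed level of 1151145 to 1211274 in RH2hKO and 1271870.0 to 1386350.0 in RH2hWT. Summed erythroid markers reached 120.6 to 328 in RH2hKO and 43.1 to 106 in RH2hWT, and summed later neutrophil markers 618.5 to 1593 in RH2hKO and 825 to 6820.3 in RH2hWT. Summed stem and multipotent markers reached 1188 to 1728 in RH2hKO and 634 to 939.9 in RH2hWT. Summed dendritic markers reached 3522 to 5115 in RH2hKO and 2790.2 to 3167 in RH2hWT. Most of the dendritic sum was Bst2 alone, at 2951.8 to 4203.4 in RH2hKO and 2123.4 to 2653.2 in RH2hWT. Of the 4 dendritic markers tested, 2 had positive and 2 negative fold changes, with a median of -0.32 on the log2 scale. Stromal and endothelial markers summed to 4664 to 5421.5 in RH2hKO and 3434 to 4228 in RH2hWT. Nearly all of that sum was Pecam1, at 4653.6 to 5401.7 in RH2hKO and 3416.2 to 4218.5 in RH2hWT. Pecam1 was the only gene of that list with enough counts to be tested. Eosinophil markers summed to 5498 to 23205 in RH2hKO and 18343 to 32553 in RH2hWT. Among all marker lists Flt3, Hbb-bs, Vwf, Ccr2, Bst2 and Pecam1 were called higher and Gzmb, Ear1 and Ear2 lower in RH2hKO (limma), and except for Gzmb and Ear1 each of these calls was lost in at least 1 alternative fit. The part of these markers in the results below was not tested. In bulk libraries, fewer cells of a type and less RNA per cell cannot be told apart. On the second principal component over all genes, which held 17.7% of the variance, RH2hKO library 8 (49.7) and RH2hWT library 1 (-34.6) stood apart. The other libraries lay from -10.95 to 13.96, and results are therefore also given without both. On the first component (26.0% of the variance) both were the library of their group nearest the other group. RH2hKO library 8 was at 16.6 (other RH2hKO libraries 28.0 to 32.4). RH2hWT library 1 was at -10.2 (other RH2hWT libraries -33.4 to -28.7).

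Start-site sequences are shown first because the TOP motif is the feature these genes are best known to share. RefSeq promoters (GRCm38.p6) were matched by symbol for 63 of the 83 genes. A C followed by 4 bases that are each C or T lay exactly at the annotated start in 13 of the 63 (20.6%), against 3.01% of all 27025 genes with a promoter. Within 10 bases of the start on the transcribed strand it was found in 39 (61.9%), against 34.4% of all genes. On the opposite strand the same search found 15 (23.8%), against 38.5% of all genes. The windows below run from 25 bases before the annotated start through the first 20 bases of the transcript, with every run that matches the motif near the start in capitals. They show Rpl28, Rpl13a, Rpl31, Rps27 and Rps27l, genes described below for their values, Rpl15 as a long run at the start, and Rpl7l1, Rpl11 and Rps3, in which no match was found within 10 bases of the start.
Rpl28 (chr7:4792940-4792984, + strand): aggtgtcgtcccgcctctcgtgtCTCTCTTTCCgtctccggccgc
Rpl13a (chr7:45128726-45128770, - strand): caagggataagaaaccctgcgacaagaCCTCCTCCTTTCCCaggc
Rpl31 (chr1:39367826-39367870, + strand): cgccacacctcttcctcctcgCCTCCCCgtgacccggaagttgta
Rps27 (chr3:90213629-90213673, - strand): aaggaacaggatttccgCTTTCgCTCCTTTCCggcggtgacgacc
Rps27l (chr9:66946061-66946105, + strand): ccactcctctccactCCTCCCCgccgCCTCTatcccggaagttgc
Rpl15 (chr14:18270967-18271011, - strand): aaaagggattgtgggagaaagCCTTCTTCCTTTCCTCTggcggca
Rpl7l1 (chr17:46782637-46782681, - strand): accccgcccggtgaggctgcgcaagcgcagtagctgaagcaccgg
Rpl11 (chr4:136053374-136053418, - strand): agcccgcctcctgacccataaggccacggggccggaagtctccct
Rps3 (chr7:99483690-99483734, - strand): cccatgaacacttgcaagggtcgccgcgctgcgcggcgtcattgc
In these windows a run crosses the start in Rpl15, Rpl28, Rpl31 and Rps27 and begins just after it in Rpl13a and Rps27l. Annotated starts can be off by several bases, so the share exactly at the start depends on the annotation.

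No cytosolic ribosomal protein gene passed the test for a difference between RH2hKO and RH2hWT progenitors. Of the 83 genes, 81 had a mean of at least 10 normalised counts and were tested. Of these, 0 were called higher and 0 lower in RH2hKO (limma, Benjamini-Hochberg adjusted p below 0.05 over all 16688 genes tested), where 234 of all genes tested (1.4%) were called. At an unadjusted p below 0.05 there were 2 ribosomal protein genes (2.47%), Rpl7l1 among them, against 13.2% of all genes tested. The 4 RH2hKO values lay entirely outside the 4 RH2hWT values for 2 genes (2.47%), Rpl28 among them and both higher in RH2hKO, against 7.41% of all genes. On the recovered reads, edgeR's quasi-likelihood test called 0 of the 81 (2 at an unadjusted p below 0.05) against 1.44% of all genes, and DESeq2 called 0 of the 81 (3 at an unadjusted p below 0.05) against 3.35% of all genes.

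The log2 fold changes were small in both directions. Their median was -0.01 over the 81 genes and -0.01 over all genes tested. The fold change was positive for 39 genes and negative for 42, lay within 0.1 of 0 on the log2 scale for 47, and exceeded 0.2 in size for 6. The median size of a log2 fold change was 0.08 for ribosomal protein genes and 0.13 for all genes tested, and the median SD within groups was 0.16 and 0.19 on the same scale. Among the 80 genes averaging 50 or more, the 95% intervals of the fold change ran from 0.686 at the lowest to 1.68 at the highest. In 79 of these the whole interval lay within 1.5-fold in either direction, and in 58 it lay within 1.3-fold. A p that misses the threshold does not show that levels are equal, and these intervals give the changes that 4 libraries per group leave possible.

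**Figure D1:**
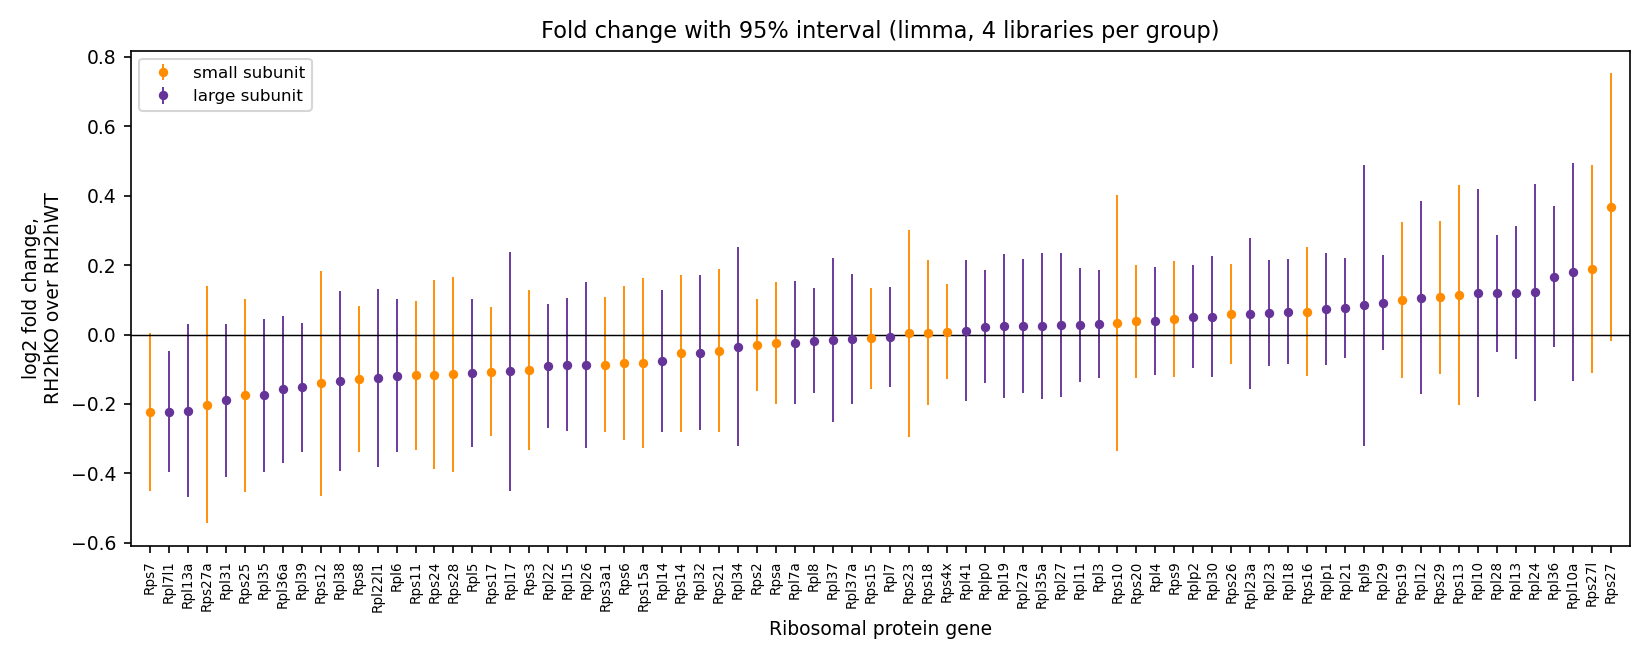
Log2 fold change (RH2hKO over RH2hWT, vertical axis) of 78 of the 80 ribosomal protein genes with a mean of at least 50 normalised counts, ordered from lowest to highest along the horizontal axis. Points are limma estimates from 4 libraries per group, lines their unadjusted 95% intervals, and colours the subunit; Rps27 has the highest estimate (0.37) and Rps7 the lowest (-0.22).

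The highest fold change was that of Rps27, a zinc-binding protein of the small subunit, at 0.37 on the log2 scale. Rps27 had 226, 223, 171 and 202 normalised counts in RH2hKO libraries 5 to 8, against 151, 129, 206 and 155 in RH2hWT libraries 1 to 4. RH2hWT library 3 lay among the RH2hKO values, so the groups overlapped, and the difference did not pass the test (log2 fold change 0.37, SE 0.18, adjusted p = 0.405). Rps27 is also among the 3 tested members with the fewest counts, and 98.6% of the 50-base windows of its mRNA occur in transcripts of another gene. When the counts of its 12 retrocopies were added, its log2 fold change was -0.03 (adjusted p = 0.943).

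Rpl28, a large subunit protein gene, had all RH2hKO values above all RH2hWT values, with a lowest RH2hKO value of 1511.5 and a highest RH2hWT value of 1510.4 (log2 fold change 0.12, SE 0.08, adjusted p = 0.559). Rpl28 is named here because its groups did not overlap.

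Of the other genes at the upper end, Rps27l, the paralogue of Rps27 that p53 induces in human cells, had 7634, 5866, 5449 and 8504 normalised counts in RH2hKO and 5058, 5326, 7193 and 6352 in RH2hWT. RH2hKO libraries 5 and 8 were the highest 2 and the remaining RH2hKO values lay among those of RH2hWT (log2 fold change 0.19, SE 0.14, adjusted p = 0.614). Rpl10a, a protein of the mobile L1 stalk, had a log2 fold change of 0.18 and overlapping groups, 2688 to 4105 in RH2hKO and 2461 to 3855 in RH2hWT. With its copies added the log2 fold change of Rpl10a was -0.01 (limma, adjusted p = 0.966). Without RH2hKO library 5 that of the gene alone was 0.06, and without RH2hWT library 3 it was 0.33. Rpl36 (0.17; 1319 to 1574 in RH2hKO and 1135 to 1407 in RH2hWT) and Rpl24 (0.12; 578 to 883 in RH2hKO and 531 to 766 in RH2hWT) also overlapped.

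The lowest fold changes belonged to Rps7 and Rpl7l1. Rps7, a small subunit protein that binds MDM2 in human cells, had 9917, 7617, 8560.5 and 10085 normalised counts in RH2hKO and 9056, 10089, 12439 and 10648 in RH2hWT. RH2hWT library 3 was the highest and RH2hKO library 6 the lowest, and the groups overlapped (log2 fold change -0.22, SE 0.11, adjusted p = 0.387). Rpl7l1, a relative of Rpl7 found in human cells on precursors of the large subunit (chromosome 17, 46773907 to 46782672, mm10), had 6594, 6117, 5749 and 6987 normalised counts in RH2hKO and 7186, 6742, 8211 and 7542 in RH2hWT. Only RH2hKO library 8 reached into the RH2hWT range, where it passed RH2hWT library 2 (log2 fold change -0.22, SE 0.08, adjusted p = 0.245; unadjusted p = 0.0164).

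Rpl13a, which in human monocytes also forms part of a complex that silences inflammatory mRNAs, ranged from 4365 to 6084 in RH2hKO and from 5156 to 7058 in RH2hWT (log2 fold change -0.22, SE 0.12, adjusted p = 0.447). Rps27a, made as a fusion with ubiquitin, had 1184, 895, 927 and 1291 normalised counts in RH2hKO libraries 5 to 8, against 987, 1056, 1660.2 and 1284 in RH2hWT libraries 1 to 4. It had the largest spread of those 80 genes, 1.85-fold between its highest and lowest library, and the groups overlapped (log2 fold change -0.20, SE 0.16, adjusted p = 0.636). Rpl31, at the exit of the peptide tunnel, had a log2 fold change of -0.19 (1182 to 1440 in RH2hKO, 1260 to 1697 in RH2hWT). Rps25, which viral internal ribosome entry sites need in yeast and human cells, had one of -0.18 (7603 to 10488 in RH2hKO, 8063 to 12476 in RH2hWT).

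Without RH2hKO library 8 and RH2hWT library 1 together, 4 of the 81 genes were called lower in RH2hKO and 0 higher, a share of 4.94% lower, where 789 of 16710 genes (4.72%) were called lower and 8.62% were called in either direction. The 4 were Rpl13a (log2 fold change -0.37, adjusted p = 0.0399), Rps7 (-0.35, adjusted p = 0.0428), Rpl31 (-0.32, adjusted p = 0.0430) and Rpl7l1 (-0.28, adjusted p = 0.0483), all by limma. The share of members called lower is near that of all genes tested. Leaving out RH2hKO library 8 alone or RH2hWT library 1 alone called 0 of the 81 genes. On the first principal component each of these libraries was the one of its group nearest the other group. Leaving out both therefore removes the least different library of each group on that component. Calls over all genes went from 234 of 16688 to 1440 of 16710 without both.

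Counts assigned to the genes themselves spanned more than 2 orders of magnitude. These counts leave out the retrocopies: Rps10 had a mean of 374 normalised counts, and its 6 copies together had 26545.0. Over the 80 genes averaging 50 or more, counts per kilobase of the main mRNA ranged from 421.5 for Rps10 to 85080 for Rpl8. The 3 members with the most counts were Rps3, Rpl8 and Rpl4. Rps3, a protein of the mRNA entry channel, had 98505, 84604, 82841 and 104657 normalised counts in RH2hKO and 87567, 93209, 117554 and 99983 in RH2hWT. RH2hWT library 3 was the highest and RH2hKO library 7 the lowest (log2 fold change -0.10, SE 0.11, adjusted p = 0.742).

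Rpl8, which sits near the site of peptide bond formation, had 73596, 70997, 68966 and 74344 normalised counts in RH2hKO and 70551, 72632, 73682 and 74460.1 in RH2hWT. It varied least of the 80 genes, 1.08-fold from the lowest library to the highest, with overlapping groups (log2 fold change -0.02, SE 0.07, adjusted p = 0.947); with quantile normalisation its log2 fold change was 0.09 (adjusted p = 0.587). Rpl4, which lines the peptide exit tunnel, averaged 73176 ± 2187 normalised counts in RH2hKO and 71309 ± 3384 in RH2hWT (log2 fold change 0.04, SE 0.07, adjusted p = 0.879). It was the 1 tested member whose lowest value was in RH2hWT library 3, at 66987. Rps10, of the small subunit's head, was among the 3 least counted tested members with Rps27 and Rpl39l, and ranged from 314 to 510 in RH2hKO and from 313 to 467 in RH2hWT.

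Rpl5 and Rpl11 are the protein partners of 5S rRNA. Rpl5 had 3027, 2559.8, 2559 and 3259 normalised counts in RH2hKO and 2796, 2928, 3567 and 3016 in RH2hWT. Rpl11 had 2299, 2166, 1938 and 2239 normalised counts in RH2hKO and 2045, 2199, 2089 and 2131 in RH2hWT. For both genes the groups overlapped (Rpl5 log2 fold change -0.11, SE 0.10, adjusted p = 0.684; Rpl11 log2 fold change 0.03, SE 0.08, adjusted p = 0.921). With its retrocopies added, Rpl11 had a log2 fold change of -0.06 (adjusted p = 0.775). Of the 9 members reported to bind Mdm2 or its human counterpart, which include both, 3 had positive and 6 negative fold changes, and their median was -0.09.

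The stalk proteins Rplp0, Rplp1 and Rplp2, which recruit elongation factors to the large subunit, had log2 fold changes of 0.02, 0.07 and 0.05. Rplp1 had 27639, 25844, 22490.2 and 26654 normalised counts in RH2hKO and 23253, 24729.7, 25071 and 24299 in RH2hWT. Rplp0 averaged 61639 ± 4232 normalised counts in RH2hKO and 60623 ± 2395 in RH2hWT and Rplp2 averaged 4710.4 ± 201 normalised counts in RH2hKO and 4547 ± 253 in RH2hWT. In each of the 3 genes the groups overlapped, and RH2hKO library 7 was the lowest RH2hKO library for Rplp1 and Rplp2.

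The 20 members whose human counterparts are mutated in Diamond-Blackfan anaemia divided evenly, 10 positive and 10 negative, around a median of -0.03 on the log2 scale and with a range from -0.22 for Rps7 to 0.37 for Rps27. Rps19, the gene most often affected in patients, had 7326, 7065, 6306 and 7416 normalised counts in RH2hKO libraries 5 to 8, against 5529.8, 6056, 8150.0 and 6742 in RH2hWT libraries 1 to 4. RH2hWT held both the lowest and the highest value (log2 fold change 0.10, SE 0.10, adjusted p = 0.745). Rps19 was chosen for its clinical role after its values were seen.

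The 4 genes on chromosome X were Rps4x, Rpl10, Rpl36a and Rpl39, with log2 fold changes of 0.01, 0.12, -0.16 and -0.15. Rps4x had 25227, 23993, 24282 and 24645 normalised counts in RH2hKO and 24308, 23770.0, 25842 and 23691 in RH2hWT, a spread of 1.09-fold. Rpl10, which is added late to the large subunit and completes its active site, had 2640.5, 2096, 2058 and 1819 normalised counts in RH2hKO and 1581, 1914, 2602 and 1893 in RH2hWT. Rpl36a averaged 1221 ± 134 normalised counts in RH2hKO and 1360.2 ± 118 in RH2hWT. In all 4 genes the groups overlapped.

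Some ribosomal proteins have paralogues that take their place in particular tissues, and 6 of these are members. Rpl22l1, whose mRNA Rpl22 is known to restrain in mouse cells, had 2208, 2067, 1838 and 2398 normalised counts in RH2hKO and 1993, 2079.9, 2951 and 2329 in RH2hWT. Rpl22 itself had 14963, 13976, 13939 and 16608 normalised counts in RH2hKO and 14359.5, 14957, 17770.5 and 16328 in RH2hWT. Both were highest in RH2hWT library 3 and lowest in RH2hKO library 7, and neither passed the test (Rpl22l1 log2 fold change -0.13, SE 0.12, adjusted p = 0.707; Rpl22 log2 fold change -0.09, SE 0.08, adjusted p = 0.697). Rpl7, the parent of Rpl7l1, averaged 19646 ± 1116 normalised counts in RH2hKO and 19713 ± 674 in RH2hWT (log2 fold change -0.01).

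Rpl39l, known from testis, was near the lower limit of the test. It had 2.7, 10.7, 2 and 36.6 normalised counts in RH2hKO and 0, 17.9, 16.2 and 22.2 in RH2hWT. The values spread over both groups and RH2hKO library 8 held the highest (log2 fold change -0.16, SE 1.04, adjusted p = 0.968). Its parent Rpl39 had 3472, 3421, 2883 and 3503 normalised counts in RH2hKO libraries 5 to 8, against 3472, 3461, 4180.0 and 3643 in RH2hWT libraries 1 to 4, with RH2hKO library 7 lowest and RH2hWT library 3 highest (log2 fold change -0.15, SE 0.09, adjusted p = 0.488).

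Rpl3l and Rpl10l had means under 10 and were not tested. Rpl3l, the heart and skeletal muscle form of Rpl3 (chromosome 17, 24727820 to 24736143, mm10), had 10.8, 11.7, 6.9 and 7.7 normalised counts in RH2hKO and 0, 0, 2.5 and 1.9 in RH2hWT. Every RH2hKO value exceeded every RH2hWT value. In reads, these were 12, 12, 7 and 8 in RH2hKO and 0, 0, 2 and 2 in RH2hWT, 39 against 4 in all, a ratio of 10.1 at equal depth with an exact 95% interval of 3.63 to 38.7 that covers counting error only. With no filter on low values limma gave an adjusted p of 0.107. Its parent Rpl3 averaged 8933 ± 477 normalised counts in RH2hKO and 8755 ± 641 in RH2hWT. Rpl10l, a testis form of Rpl10, had 2 reads over the RH2hKO libraries and 3 over those of RH2hWT.

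**Figure D2:**
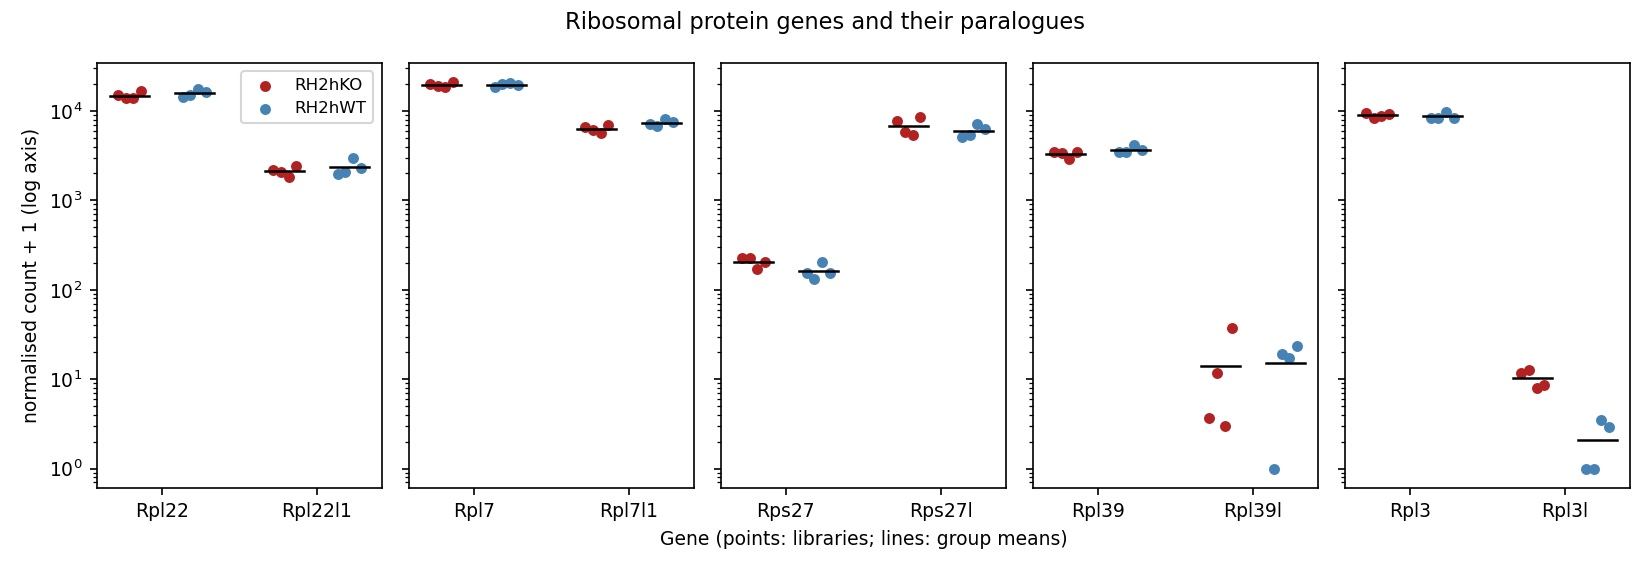
Normalised count + 1 (vertical log axis) of 5 ribosomal protein genes and their paralogues in 4 RH2hKO (left, red) and 4 RH2hWT libraries (right, blue); points are libraries and lines group means. Rpl39l and Rpl3l were near 0, and the groups separate for Rpl3l, at 12, 12, 7 and 8 reads in RH2hKO and 0, 0, 2 and 2 in RH2hWT.

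Small and large subunit genes did not differ beyond the spread between libraries. Small subunit genes had a median log2 fold change of -0.04 (13 positive, 19 negative) and large subunit genes one of 0.02 (26 positive, 23 negative). The mean deviation of small subunit genes from the RH2hWT mean, minus that of large subunit genes, was 0.04, -0.07, -0.01 and -0.03 on the log2 scale in RH2hKO libraries 5 to 8, against 0.02, -0.04, 0.04 and -0.02 in RH2hWT libraries 1 to 4. The ranges overlapped, and the difference of the group means, -0.02, was smaller than the SD within either group, 0.05 in RH2hKO and 0.04 in RH2hWT.

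Libraries of both groups differed from one another more than the groups did. The ribosomal protein genes took 2.75, 2.51, 2.45 and 2.75% of all normalised counts in RH2hKO libraries 5 to 8, against 2.39, 2.55, 2.88 and 2.60% in RH2hWT libraries 1 to 4. That is 2.62 ± 0.158% in RH2hKO and 2.60 ± 0.203% in RH2hWT (SD, n = 4 each). The mean deviation of the 81 genes from the RH2hWT mean was 0.09, -0.08, -0.16 and 0.10 in RH2hKO and -0.19, -0.04, 0.20 and 0.04 in RH2hWT, on the log2 scale. RH2hWT library 3 was the highest library for 50 of the 81 genes and RH2hKO library 5 for 16. RH2hKO library 7 and RH2hWT library 1 were each the lowest for 29. The median gene differed 1.37-fold between its highest and lowest library.

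A set of short genes outside the members moved in part with the same libraries. It held 277 other tested genes with an exonic length of at most 1000 bases and was chosen after the data were seen. By the same length the members ran from 383 bases (Rpl36) to 6270 (Rps15a), and most exceeded 1000. Median deviations of the 277 genes were -0.05, -0.14, -0.26 and 0.04 in RH2hKO libraries 5 to 8. In RH2hWT libraries 1 to 4 they were -0.15, -0.04, 0.14 and 0.09. As for the ribosomal protein genes, RH2hWT library 3 was the highest, but RH2hKO library 5 lay below the RH2hWT mean. Mitochondrially encoded genes took 1.03, 0.774, 0.863 and 0.623% of counts in RH2hKO and 0.605, 0.629, 1.03 and 0.651% in RH2hWT. RH2hKO library 5 and RH2hWT library 3 were the highest for this share. The part of either in the differences between libraries was not tested.

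**Figure D3:**
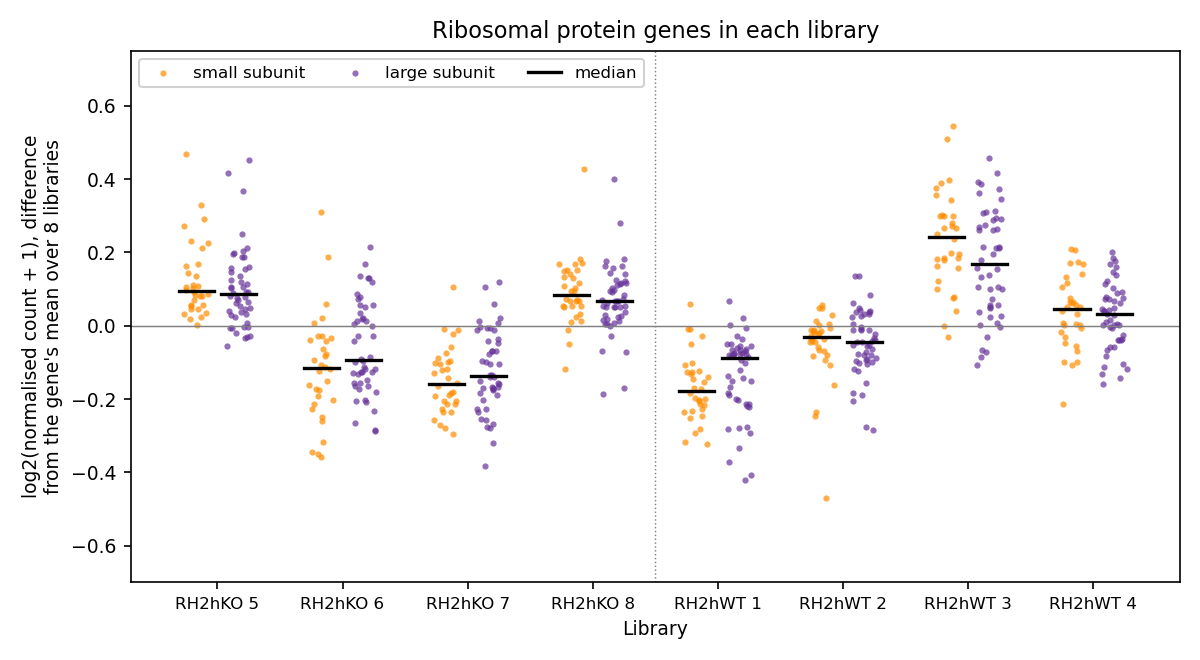
Difference of each ribosomal protein gene (mean of at least 50) from its own mean over the 8 libraries, in log2(normalised count + 1), for 4 RH2hKO libraries (left) and 4 RH2hWT libraries (right). Points are genes coloured by subunit and black lines their medians; RH2hWT 3 lies highest, RH2hKO 7 and RH2hWT 1 lowest, and both subunits shift together within a library.

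Ribosomal protein genes have left many retrocopies in the mouse genome, intronless copies of their mRNAs that are mostly annotated as pseudogenes. A sequence search (BLAST, at least 80% identity over at least 50% of the copy's length) assigned 1338 rows of the table to 81 of the 83 genes. Of these rows 831 had a mean of at least 10. The search did not check for introns, and 13 of the 1338 are annotated as protein-coding. All are called copies or retrocopies here. Rpl7a had 108 such copies, Rps2 76 and Rpl21 74. The copies held 5.42 ± 0.393% of all normalised counts in RH2hKO and 5.47 ± 0.517% in RH2hWT (SD, n = 4 each), 2.07 and 2.10 times the counts of the genes themselves. For 64 of the 83 genes the copies together had more counts than the gene.

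Single copies reached very high counts, given here without division by length. Gm11478, a copy of Rpl13a, averaged 50214 ± 6146 normalised counts in RH2hKO and 54838 ± 8288 in RH2hWT, against 5324 ± 855 normalised counts in RH2hKO and 6177 ± 801 in RH2hWT for Rpl13a itself. Rps27rt, an intronless protein-coding copy of Rps27, averaged 14671 ± 1588 normalised counts in RH2hKO and 15082 ± 2212 in RH2hWT, where Rps27 averaged 205 ± 25.5 normalised counts in RH2hKO and 160.4 ± 32.5 in RH2hWT. These copies were named after their values were seen. A median of 54.5% of the 50-base windows of a member's mRNA, the length of 1 sequenced end, also occur in transcripts of other genes, and for 48 members more than 50% do. Counts of a gene and its copies therefore cannot be fully told apart, and no source used here states how reads with several matches were assigned.

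At the other end were genes with few or no counted copies. The copies of Rpl8 summed to 20.7 normalised counts and those of Rplp2 to 131.6. For both genes, singled out after their values were seen, the log2 fold changes were -0.02 for Rpl8 and 0.05 for Rplp2. The 33 tested members with at most 50% of their windows shared had a median log2 fold change of -0.01 (16 positive, 17 negative), and the 48 with more than 50% shared one of -0.01 (23 positive, 25 negative).

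With all copies added to each gene, 0 of the 81 sums were called, 1 had an unadjusted p below 0.05 and the median log2 fold change was -0.05, with 25 sums positive against 39 for the genes alone. In that fit, of all 15857 genes tested, 201 were called higher and 37 lower, and 2173 had an unadjusted p below 0.05 (limma). The lowest adjusted p among the sums was 0.256 (limma), for Rpl7l1. With its copies Rpl7l1 averaged 7794 ± 698 normalised counts in RH2hKO and 9067 ± 805 in RH2hWT. Among the copies, 1 of the 831 tested was called, where 234 of all 16688 genes tested (1.4%) were called. Gm9493, a copy of Rps7 on chromosome 19 (23619749 to 23620319, mm10), had 2356, 2217, 1994 and 2339.6 normalised counts in RH2hKO and 2844, 3477, 4299 and 3414 in RH2hWT. The groups did not overlap (log2 fold change -0.64, SE 0.11, adjusted p = 0.0065, limma), and without the intensity trend the adjusted p was 0.113.

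**Figure D4:**
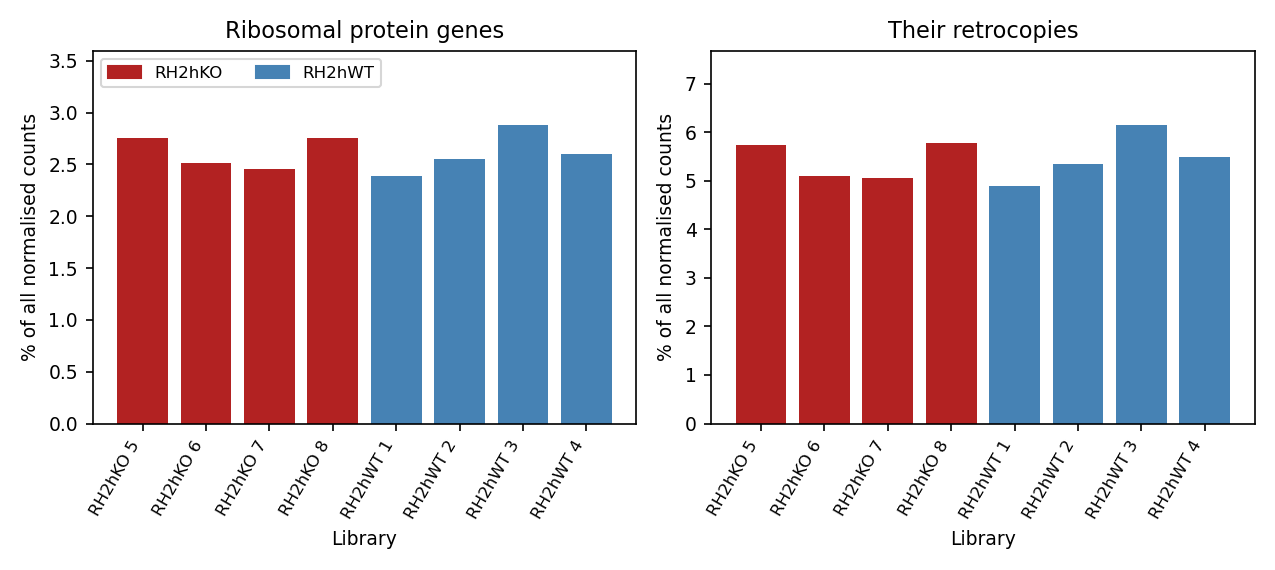
Share of all normalised counts (%) in each RH2hKO library (left, red) and RH2hWT library (right, blue). The left panel shows the 83 ribosomal protein genes and the right panel their 1338 copies found by sequence. Bars are single libraries. Genes took 2.39 to 2.88% and the order of the libraries is similar for the copies, with RH2hWT 3 highest and RH2hWT 1 lowest in both.

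**Figure D5:**
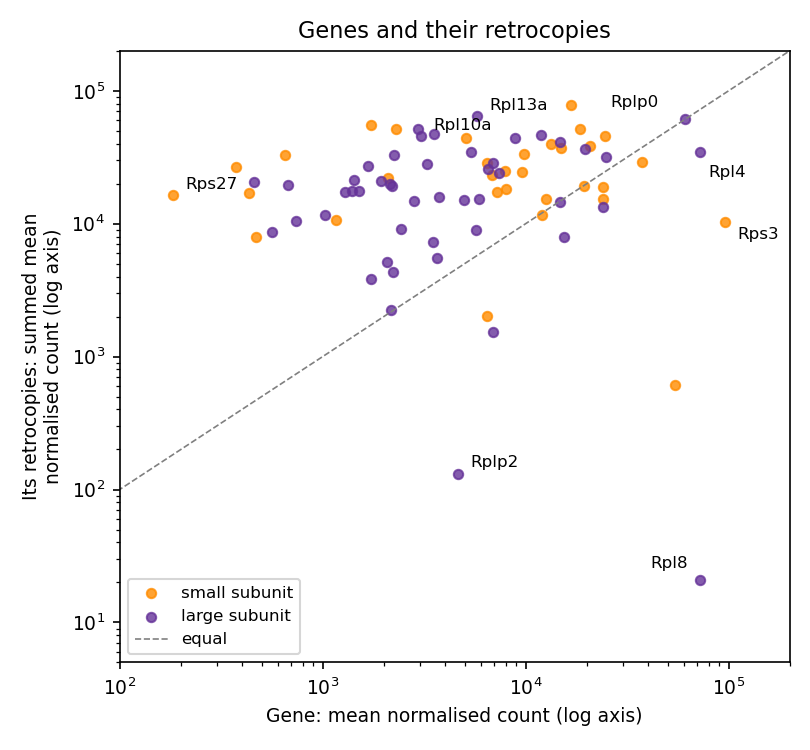
Mean normalised count of each ribosomal protein gene (horizontal log axis) against the summed mean of its retrocopies (vertical log axis), for genes with a mean of 50 or more and a counted copy; colours mark the subunit and the dashed line equal counts. Most genes lie above the line, Rps27 far above it, and Rpl8 and Rplp2 far below it.

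Genes that act with ribosomal proteins were read from lists chosen with earlier results known. None of the 5 ribosomal genes outside the rule was called, among them Rack1, a scaffold protein of the small subunit, with 85467 ± 5614 normalised counts in RH2hKO and 86527 ± 6059.6 in RH2hWT. None of 18 elongation factor and other TOP mRNA genes was called (7 positive, 11 negative, median -0.03), including Eef1a1 (260468 ± 10563 normalised counts in RH2hKO and 266054 ± 9074 in RH2hWT) and Eef2 (114265 ± 7045 normalised counts in RH2hKO and 103921 ± 10246 in RH2hWT). Of 13 genes of RNA polymerase I and the Myc network 0 were called, with 11 positive. Myc, which drives ribosome production, had 8897, 8904, 9866 and 9661 normalised counts in RH2hKO and 9159.7, 6978, 6642 and 6684 in RH2hWT. RH2hWT library 1 lay among the RH2hKO values (log2 fold change 0.35, SE 0.10, adjusted p = 0.106, limma). Without that library the adjusted p was 0.0036 (limma). That fit leaves out the value that went against the difference and is no separate support. On all 8 libraries the adjusted p was 0.034 with DESeq2 and 0.012 with limma and array weights. None of the 9 chaperones of ribosomal proteins and 5S particle assembly factors was called (3 positive, 6 negative, median -0.11).

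Called genes stood in 2 of these lists. Of 18 genes of mTORC1 and TOP mRNA control, Sesn2 and Ddit4, both inhibitors of mTORC1 signalling, were called higher in RH2hKO and none lower. Of all genes tested, 1.4% were called in either direction. The 18 fold changes divided evenly, 9 positive and 9 negative, around a median of -0.0002 on the log2 scale. Sesn2 had 1558, 1009, 1385 and 808 normalised counts in RH2hKO and 317, 335, 249.8 and 288 in RH2hWT (log2 fold change 1.96, SE 0.18, adjusted p = 2.5e-05). Ddit4 averaged 419.6 ± 85.9 normalised counts in RH2hKO and 205 ± 52.3 in RH2hWT (log2 fold change 1.04, SE 0.20, adjusted p = 0.0143). The Ddit4 call was lost without RH2hKO library 5 (adjusted p = 0.0568), without RH2hKO library 6 (adjusted p = 0.0592) and without the intensity trend (adjusted p = 0.121). The other 16 genes, Mtor and Larp1 among them, were not called.

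Of 7 tested genes on a list for the 5S particle, Mdm2 and p53, Mdm2 and Cdkn1a were called higher in RH2hKO and none lower. Of all genes tested, 1.4% were called in either direction. Mdm2, the ubiquitin ligase that Rpl5 and Rpl11 bind, had 3659.7, 2888, 3249.5 and 2847 normalised counts in RH2hKO and 1987, 2068, 2291 and 2181 in RH2hWT. The groups did not overlap (log2 fold change 0.56, SE 0.09, adjusted p = 0.0043), and without the intensity trend the adjusted p was 0.0741. Cdkn1a, the p53 target that halts the cell cycle, averaged 4955 ± 1154 normalised counts in RH2hKO and 427 ± 60.7 in RH2hWT (log2 fold change 3.51, SE 0.15, adjusted p = 1.5e-08). These tests were made with limma over all genes tested. The part of ribosomal proteins in the rise of Mdm2 and Cdkn1a was not tested.

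Ribosomal proteins of mitochondria, encoded by separate genes, had 13 positive and 64 negative fold changes among 77 tested, a median of -0.10 on the log2 scale and 0 calls. Nuclear genes of oxidative phosphorylation had 7 positive and 79 negative among 86, with a median of -0.15 and 1 call, Cox6b2, which rose (log2 fold change 1.10, SE 0.12, adjusted p = 0.00011, limma). Cytosolic ribosomal proteins had 39 positive and 42 negative, and all genes tested had 47.2% positive. Fold changes of genes in 1 list share the 8 libraries, so these counts are descriptions and the difference between the lists was not tested.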

How the data were processed

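GMP were sorted from 8 mice, and polyadenylated RNA was made into strand-specific paired-end libraries, as the labels' protocols state. GSNAP 2020-12-16 and featureCounts 2.0.1, with FastQC, R 3.5.1, DESeq2 1.30.1 and mm10, appear in the submitters' processing notes. No source used here gives the annotation release, the strand setting or the treatment of reads with several matches. Per the labels and the values, the deposited signal is a normalised count: the authors scaled each library by 1 factor and kept 1 decimal. Whole reads were recovered, within 0.051 normalised counts, for 99.997% of values above 0. These recovered reads gave the depths, 28352720 to 45655518, and the input of edgeR and DESeq2.

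Groups were compared by limma 3.58.1 (R 4.3.3) with an intensity trend on log2(deposited value + 1). It covered genes averaging 10 or more and used an adjusted p below 0.05. This scale understates fold changes of low genes. Values after ± are SDs over 4 libraries, and p-values measure the spread between mice. Alternatives used edgeR 4.0.16 and DESeq2 1.42.0. Copies were assigned with BLAST 2.17.0 on GENCODE transcripts of GRCm38. In a chi-square comparison of reads, pairs of libraries of a group gave 13.0 to 41.6 per degree of freedom, so no pair agreed within sampling noise.

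The genes and lists were chosen with earlier results of these data known. Genes named are members past the threshold, the 6 highest and 6 lowest fold changes at a mean of 50 or more, the 3 most and 3 least abundant, the 5S rRNA partners, the stalk, paralogues with their parents, chromosome X genes and untested members. Of other lists, up to 5 called genes or the 2 most abundant are named, with exceptions marked where they appear. A few genes that this rule names are not reported here. Genes with antisense partners are uncertain, since the strand setting is unknown.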

Additional observations from a re-analysis of the deposited data

Results flagged for a closer look

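In 7 of the 118 groups of 4 libraries examined, for genes whose values are given above and summed measures of each library, 1 library lay far from the others by Dixon's test, and chance alone flags about 1 group in 20. RH2hKO library 7 was low for Rpl39, at 2883, and for the stalk gene Rplp2, at 4409.9. RH2hKO library 5 was high for Rpl28, at 1727, and RH2hKO library 8 for Rpl10l, at 1.9, where it held the 2 reads of that group. RH2hWT library 3 was high for Rpl10a, at 3855, and for Rpl3, at 9717, and RH2hWT library 1 for Myc, at 9159.7. RH2hKO library 7 was also the lowest library for 29 of the 81 tested genes and RH2hWT library 3 the highest for 50.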

How the results depend on the processing

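The count of ribosomal protein genes called higher was 0 in all 22 alternatives. The count called lower was 0 in 21 of them and 4 without RH2hKO library 8 and RH2hWT library 1 together. Calls over all genes were fewest without the intensity trend, 93 higher and 11 lower of 16688. They were most without both libraries, 651 higher and 789 lower of 16710. In that fit 24 members had an unadjusted p below 0.05 (limma), 1 of them higher, against 4080 of all genes. Leaving out each library in turn gave 0 calls in either direction, with a lowest adjusted p among members of 0.0797 without RH2hKO library 8. The median log2 fold change of the members ranged from -0.08 to 0.03 over the alternatives and so changed sign, the difference between small and large subunits from -0.04 to 0.00 and the difference in the share of counts from -0.103 to 0.105 percentage points; each stayed within 1 SD of its value in the text. With equal totals the median of the members was 0.02 and with quantile normalisation 0.02. Among the fits on all 8 libraries, the lowest adjusted p of a member was 0.0543, in limma with array weights. In that fit 10 members had an unadjusted p below 0.05, 2 of them higher, against 3776 of all 16688 genes. Of 659 values of named members under the alternatives, 647 gave no other call and lay within the spread between libraries. Adding the copies by sequence was chosen after the data were seen, and it moved Rps27, Rpl11, Rpl36 and Rpl36a by more than that spread, to -0.03, -0.06, 0.03 and -0.01; adding only the pseudogenes named after it moved Rpl36 to 0.04. Quantile normalisation moved Rpl4 to 0.19, Rplp0 to 0.16 and Rpl8 to 0.09, where its sign turned. The cause of these moves was not tested. No paired analysis was made: the groups share no replicate numbers, and the sample titles do not give the litter of each mouse. Litters were therefore not taken into account.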

Other observations

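Ribosomal protein genes often carry small nucleolar RNA genes in their introns, and 30 of the 83 members contained 58 of them by GENCODE. The 30 hosts had 15 positive and 15 negative fold changes (median 0.00 on the log2 scale), and the 51 tested members without such a gene had 24 positive and 27 negative with a median of -0.01. None of either set was called. The mean deviation of the hosts from the RH2hWT mean ran from -0.11 to 0.10 over the RH2hKO libraries and from -0.14 to 0.19 over the RH2hWT libraries on the log2 scale. Expressed genes on the opposite strand overlapped 17 members, Rpl28 (with Ube2s) and Rpl31 (with Tbc1d8) among them.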
